A study of Mus musculus with 7 samples.

Results

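Spinocerebellar ataxias are inherited diseases in which the cerebellum, and often its Purkinje cells, degenerates. The genes described here are the mouse orthologs of human spinocerebellar ataxia genes that are neither ion channels nor part of mGluR1 signaling: *Atxn2*, *Atxn3*, *Atxn7*, *Tbp*, *Atxn10*, *Ppp2r2b*, *Bean1*, *Afg3l2* and *Spg7*. They were chosen by name, by matching the gene identifiers of the count tables to their symbols, and all 9 were among the 55401 genes of the tables and among the 17621 genes with enough counts to be tested. Their counts were measured in RNA recovered with tagged ribosomes (RiboTag) from Purkinje cells of 4 *nm3888*-/- mice and 3 wild-type mice, with 1 cerebellum per library, all 3 weeks old. The *nm3888*-/- mice carried Rpl22 fl/+ and PCP2-Cre together with 2 copies of the *nm3888* allele, and the wild-type mice carried Rpl22 fl/+ and PCP2-Cre without it. In both genotypes Cre switches the ribosomal protein gene *Rpl22* to an HA-tagged copy in cells that express PCP2, so an HA antibody recovers ribosomes with their bound mRNA mainly from Purkinje cells. The *nm3888* allele is an insertion of an endogenous retrovirus in an intron of *Rreb1*, a zinc finger transcription factor gene. It arose spontaneously on the NOD background, and the paper also describes backcrossing it to the B6J strain. The paper's methods for the RiboTag mice do not state their strain background. The question of the comparison is which ribosome-bound mRNAs of Purkinje cells differ when *Rreb1* is disrupted.

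By their names the libraries form 2 series. Mutants 1 and 2 and wild types 1 and 2 make up the first series, all female. Mutants 3 and 4, which were male, and wild type 3, which was female, make up the second series, so that sex and genotype cannot be told apart within it. Total counts ranged from 18023017 to 107937386 per library. Spearman correlations of the libraries were 0.979 to 0.993 within a series and 0.761 to 0.781 between series, and 21.2% of all tested genes differed by over 2-fold between the series. For this reason each level below is given by library, and the genotypes were compared with the library series as a term. *Rreb1* itself had 20.2, 19.1, 23.7 and 10.8 CPM (counts scaled to a common library total, with TMM factors) in mutants 1 to 4, against 17.7, 17.4 and 14.4 CPM in wild types 1 to 3 (log2 fold change 0.20, SE 0.23, edgeR adjusted p = 0.64). The allele is described as removing the main brain transcript of *Rreb1*, but this count, which sums all its transcripts, was higher in 3 of the 4 libraries labelled *nm3888*-/- than in any labelled wild type. Mutant 4 had the lowest level of any library, and the confidence interval of the log2 fold change ran from −0.33 to 0.74. The paper reports that other long transcripts of *Rreb1* stayed near the wild-type level in mutant cerebellum. It also reports no signal in mutant brain with a probe for all *Rreb1* transcripts. The gene count thus showed neither the described loss nor a clear difference between the genotypes, and it cannot check the labels. Each direction below is between libraries labelled *nm3888*-/- (mutants 1 to 4) and libraries labelled wild type (wild types 1 to 3). None of 12 Purkinje cell markers was called, with a median log2 fold change of 0.08 and a summed level of 41656 to 56392 CPM in mutant and 45556 to 51223 CPM in wild-type libraries.

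The 9 genes fall into 3 groups by the kind of mutation that causes the human disease. In *ATXN2*, *ATXN3*, *ATXN7* and *TBP* a run of CAG codons inside the coding sequence expands, and the protein gains a long stretch of glutamine. In *ATXN10*, *PPP2R2B* and *BEAN1* a repeat expands or is inserted outside the coding sequence. *AFG3L2* and *SPG7* (known also for spastic paraplegia) are mutated within their coding sequences and encode the subunits of a protease of the inner mitochondrial membrane. The repeats of the patients are human alleles, and the labels name no such allele in these mice.

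Because the human repeats of the first group code for glutamine, the runs of glutamine codons that the mouse genes hold are shown. They were read from the coding sequences of the GENCODE M21 transcripts of mouse build mm10, with the longest uninterrupted run of CAG and CAA codons in capitals and 15 bases of coding sequence in lower case on each side.
*Tbp*: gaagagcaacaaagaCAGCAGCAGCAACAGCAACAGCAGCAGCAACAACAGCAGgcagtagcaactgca
*Atxn3*: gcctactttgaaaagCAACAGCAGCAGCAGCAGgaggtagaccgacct
*Atxn7*: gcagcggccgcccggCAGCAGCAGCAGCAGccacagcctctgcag
*Atxn2*: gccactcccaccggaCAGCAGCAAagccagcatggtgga
The run of *Tbp* lies on the plus strand at chr17:15504391-15504429 and holds 13 codons, of which 9 are CAG and 4 are CAA. That of *Atxn3* lies on the minus strand at chr12:101926563-101926580 and holds 6 codons. That of *Atxn7* lies on the plus strand at chr14:14013156-14013170 and holds 5 codons, all CAG. That of *Atxn2* lies on the plus strand at chr5:121810946-121810954, holds 3 codons and starts at codon 1129 of 1286. Whether the runs shown lie at the sites of the human repeats was not tested. In the other 5 genes the longest run was 1 codon in *Atxn10* and 2 codons in *Afg3l2*, *Spg7*, *Ppp2r2b* and *Bean1*. Glutamine codons made up 80 of the 1286 codons of *Atxn2*, so that this protein is rich in glutamine without a long run, and 35 of the 316 codons of *Tbp*.

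*Bean1* and *Ppp2r2b* were lower in the libraries labelled *nm3888*-/- than in those labelled wild type, and none of the 9 genes was higher. *Bean1* fell to 31.4% and *Ppp2r2b* to 54.3% of the wild-type level. Both are genes in which a noncoding repeat causes the human disease, and the third gene of that kind, *Atxn10*, had a log2 fold change of −0.06. The 4 genes with glutamine-coding repeats and the 2 protease genes did not pass the test either. A gene was called where the quasi-likelihood F test of edgeR gave a p under 0.05 after Benjamini-Hochberg adjustment over all 17621 genes. Of all tested genes 8.54% were called, 2.58% higher and 5.95% lower. The excess of lower calls was not found in the second series alone, where 567 genes were called higher and 493 lower. The genotypes did not overlap in 2 of the 9 genes over all libraries, against 14.1% of all tested genes, and in 3 of the 9 within each library series, against 30.6%. Over the 9 genes the log2 fold changes had a median of −0.06, against 0.03 over all tested genes.

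**Figure D1:**
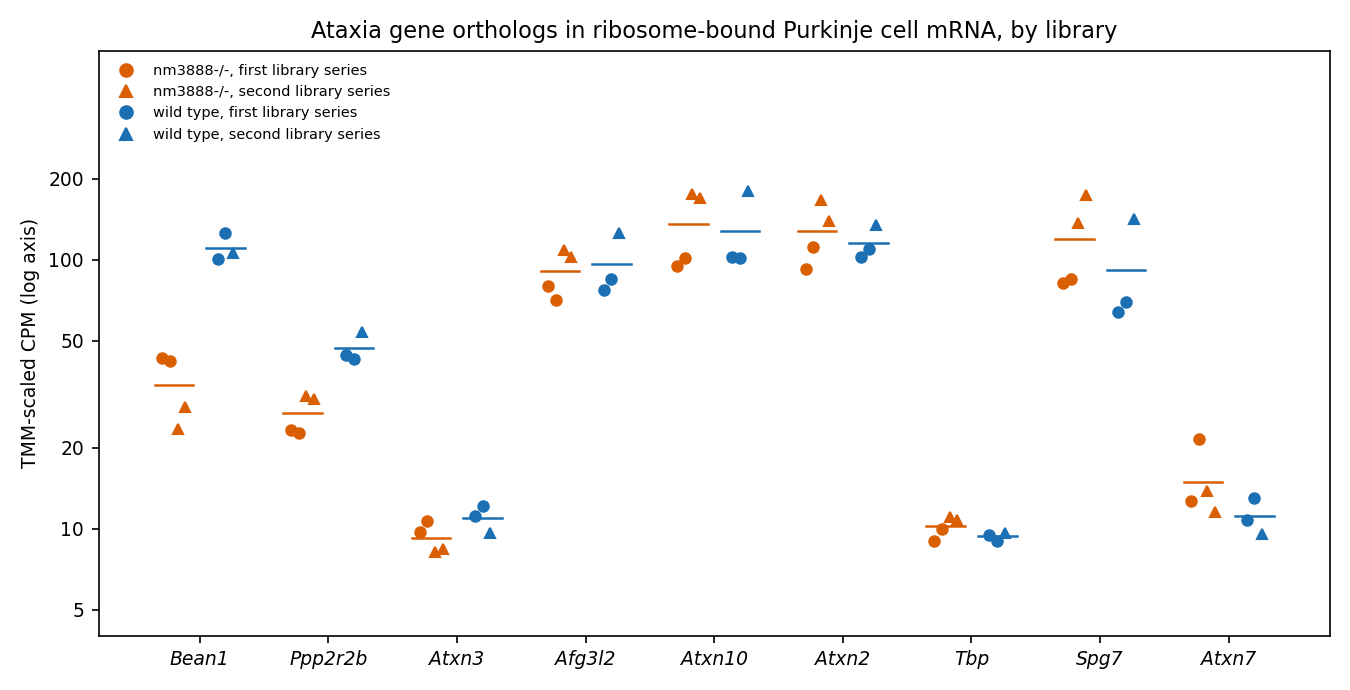
TMM-scaled CPM (log axis) of the 9 genes in each library, with *nm3888*-/- in orange left of wild type in blue, circles for the first and triangles for the second library series, and bars for group means. *Bean1* and *Ppp2r2b* show no overlap of the genotypes. *Spg7*, *Atxn10*, *Afg3l2*, *Atxn2*, *Ppp2r2b* and *Tbp* lie higher in the second series in both genotypes. Of these *Tbp* differs least (1.15-fold in mutant and 1.05-fold in wild-type libraries).

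*Bean1* lies on the plus strand of chromosome 8 from 104170442 to 104219122 (mm10) and encodes a membrane protein of brain that was found as a binding partner of the ubiquitin ligase NEDD4. It had 43.2, 42.1, 23.5 and 28.5 CPM in mutants 1 to 4, against 101, 126 and 106 CPM in wild types 1 to 3. The corresponding counts were 824, 1412, 1397 and 1287 read pairs in the mutants and 2560, 3192 and 10872 read pairs in the wild types. The highest mutant library was below the lowest wild-type library, a separation in that direction shown by 8.92% of all tested genes. The log2 fold change was −1.67 (SE 0.15, 95% confidence interval −2.01 to −1.33, edgeR adjusted p = 3.37e-04). Within the first series alone it was −1.41, and within the second series alone it was −2.03, where the single wild-type mouse is assumed to vary like the mutants. The difference between the series (−0.61, SE 0.24) had an unadjusted p = 0.0327 and an adjusted p = 0.823 by the interaction term of the edgeR model. The 2 mutant libraries of the second series were the lowest of all 7, while wild type 3 of that series lay between wild types 1 and 2.

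*Ppp2r2b* lies on the minus strand of chromosome 18 from 42637432 to 43083127 and encodes the brain-enriched B beta subunit, which directs the protein phosphatase 2A (PP2A) to its substrates. It had 23.3, 22.7, 31.0 and 30.3 CPM in mutants 1 to 4, against 44.3, 42.9 and 54.1 CPM in wild types 1 to 3. Here too every mutant library was below every wild-type library. The log2 fold change was −0.88 (SE 0.09, 95% confidence interval −1.08 to −0.68, edgeR adjusted p = 5.37e-04), with −0.92 in the first and −0.82 in the second series alone. The second series was higher than the first by 1.34-fold in mutant and 1.24-fold in wild-type libraries. Without the series term the adjusted p was 0.0877, and with sex in its place 0.0692.

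*Atxn10*, on the plus strand of chromosome 15 from 85336245 to 85463212, encodes ataxin-10, a protein of the cytoplasm that supports neuron survival and neurite growth in culture. It had 94.9, 102, 177 and 170 CPM in mutants 1 to 4, against 102, 102 and 181 CPM in wild types 1 to 3. The libraries sorted by series and not by genotype, with the second series 1.76-fold higher in mutant and 1.78-fold higher in wild-type libraries. The log2 fold change between the genotypes was −0.06 (SE 0.08, edgeR adjusted p = 0.728), and its 95% confidence interval of −0.24 to 0.13 was the narrowest of the 9 genes.

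Of the genes with glutamine-coding repeats, *Atxn3* (chromosome 12, minus strand, from 101918901 to 101958246) encodes a deubiquitinase that works with the segregase VCP on proteins bound for the proteasome. It had 9.69, 10.7, 8.20 and 8.39 CPM in mutants 1 to 4, against 11.1, 12.2 and 9.64 CPM in wild types 1 to 3. Mutant libraries were below wild-type libraries within each series, as were 16.6% of all tested genes, but the genotypes overlapped across series. The log2 fold change was −0.20 (SE 0.11, 95% confidence interval −0.46 to 0.06, edgeR adjusted p = 0.327).

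*Atxn7* (chromosome 14, plus strand, from 13961440 to 14107302) encodes a subunit of the SAGA complex that anchors a histone deubiquitinase to this coactivator of transcription. It had 12.7, 21.5, 13.8 and 11.6 CPM in mutants 1 to 4, against 10.8, 13.1 and 9.52 CPM in wild types 1 to 3. Mutants 2 and 3 stood above all wild-type libraries, and mutants 1 and 4 lay within their range. In the second series both mutants were above wild type 3. The log2 fold change of 0.48 (SE 0.19, 95% confidence interval 0.05 to 0.91) was the highest of the 9 genes and had an edgeR adjusted p = 0.162. Without mutant 2 it was 0.26 (adjusted p = 0.417).

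*Atxn2* (chromosome 5, plus strand, from 121711337 to 121816493) encodes an RNA-binding protein that binds the poly(A)-binding protein and takes part in translation and stress granules. It had 92.8, 112, 167 and 140 CPM in mutants 1 to 4, against 102, 110 and 135 CPM in wild types 1 to 3. Its log2 fold change was 0.04 (SE 0.11, 95% confidence interval −0.22 to 0.30, edgeR adjusted p = 0.861), and it was −0.05 in the first and 0.19 in the second series alone. The sign of *Atxn2* was thus not the same in the 2 series, and the interval spans 0.

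*Tbp* (chromosome 17, plus strand, from 15499888 to 15528379) encodes the TATA-binding protein, which nucleates transcription by all nuclear RNA polymerases. It had 9.01, 9.95, 11.1 and 10.8 CPM in mutants 1 to 4, against 9.48, 8.98 and 9.68 CPM in wild types 1 to 3. The spread over all 7 libraries was small, with means of 10.2 ± 0.918 CPM (SD, n = 4) in mutant and 9.38 ± 0.359 CPM (SD, n = 3) in wild-type libraries. Its log2 fold change was 0.10 (SE 0.11, 95% confidence interval −0.16 to 0.36, edgeR adjusted p = 0.655).

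*Afg3l2* (chromosome 18, minus strand, from 67404764 to 67449172) and *Spg7* (chromosome 8, plus strand, from 123062942 to 123097760) encode the AFG3L2 and paraplegin subunits, which together form the m-AAA protease that degrades and processes proteins of the inner mitochondrial membrane. *Afg3l2* had 80.1, 71.2, 109 and 102 CPM in mutants 1 to 4, against 77.5, 85.0 and 126 CPM in wild types 1 to 3. Its log2 fold change was −0.17 (SE 0.09, 95% confidence interval −0.38 to 0.05, edgeR adjusted p = 0.326). *Spg7* had 82.2, 84.8, 138 and 175 CPM in mutants 1 to 4, against 64.1, 69.7 and 142 CPM in wild types 1 to 3. Both mutants of the first series were above both wild types of that series, and in the second series wild type 3 lay between the mutants. For *Spg7* the log2 fold change was 0.24 (SE 0.11, 95% confidence interval −0.0044 to 0.49, edgeR adjusted p = 0.22). *Spg7* was also the gene of the 9 that differed most between the series, by 1.87-fold in mutant and 2.12-fold in wild-type libraries.

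**Figure D2:**
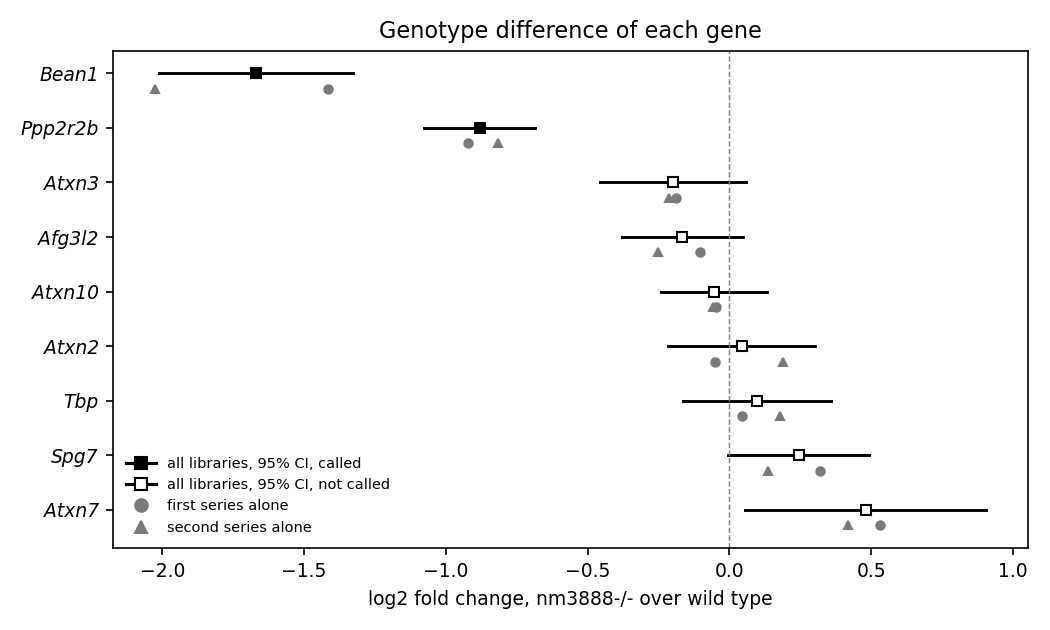
Log2 fold change of *nm3888*-/- over wild type for the 9 genes, with squares and 95% confidence intervals for all libraries (filled where called) and grey circles and triangles for the first and the second library series alone. The intervals of *Bean1* (−2.01 to −1.33) and *Ppp2r2b* (−1.08 to −0.68) lie below 0, and *Atxn7* has the widest interval (0.05 to 0.91).

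The genotype difference of the 9 genes was also compared between the series. None of them was among the 14 genes (0.0795% of those tested) whose difference depended on the series by the interaction term in edgeR, and *Bean1* was the only one of the 9 with an unadjusted p under 0.05 for that term. *Bean1* was called in all 15 alternative analyses, with log2 fold changes from −2.03 to −1.38. *Ppp2r2b* was called in 13 of the 15, with log2 fold changes from −1.04 to −0.81, and the other 7 genes in none. Because each library pools the RNA recovered with tagged ribosomes from a whole cerebellum, fewer cells of a type and less RNA per cell cannot be told apart. The paper describes 3 weeks of age, that of these mice, as before the onset of degeneration.

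Marker genes of cerebellar cells other than Purkinje cells were measured beside these genes. Of 41 tested markers of granule cells, interneurons, glia and endothelium, 37 had a positive log2 fold change, with a median of 0.49. *Gfap* (1.04) and *Cnp* (0.67) were called higher and *Hopx* (−0.82) was called lower. The 42 markers summed to 1601 to 2595 CPM in mutant and 1409 to 1644 CPM in wild-type libraries, and no marker was at 0 in any library. In the first series the sums were 1601 to 1798 CPM in mutant and 1409 to 1644 CPM in wild-type libraries, which overlap. In the second series they were 2388 to 2595 CPM in the mutants and 1516 CPM in wild type 3. Granule cell markers alone did not overlap in the first series (436 to 466 CPM in mutant, 341 to 417 CPM in wild-type libraries). Nor did interneuron markers (29.2 to 30.0 against 22.7 to 24.7 CPM), and both sums were higher in the mutants of each series. Endothelial markers were lower in the mutants of the first series (19.0 to 21.4 against 22.0 to 27.2 CPM). In the second series they were higher in the mutants (23.9 to 33.0 CPM) than in wild type 3 (16.3 CPM). The glial sums overlapped in the first series. In the second they were higher in the mutants than in wild type 3, for oligodendrocyte markers 919 to 1182 against 597 CPM. *Bean1* and *Ppp2r2b* were lower in the mutant within each series. The part of other cells in the levels of the 9 genes was not tested.

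Levels were compared between genes as CPM per kilobase of exon. In mutant libraries the means ran from *Atxn10* (70.1) and *Spg7* (26.5) through *Bean1* (9.82), *Afg3l2* (9.19), *Atxn2* (8.14) and *Ppp2r2b* (6.65) to *Atxn7* (1.86), *Atxn3* (1.71) and *Tbp* (0.751). In wild-type libraries they ran from *Atxn10* (66.2), *Bean1* (31.8) and *Spg7* (20.4) through *Ppp2r2b* (11.7), *Afg3l2* (9.75) and *Atxn2* (7.37) to *Atxn3* (2.03), *Atxn7* (1.39) and *Tbp* (0.691). *Bean1* thus ranked below *Spg7* in all 4 mutant libraries and above it in 2 of 3 wild-type libraries. *Ppp2r2b* ranked below *Atxn2* in all 4 mutant libraries, where in wild-type libraries it ranked above *Afg3l2*, which itself ranked above *Atxn2*, in all 3. Neighbors whose order was not the same in every library were *Bean1* and *Afg3l2* as well as *Atxn7* and *Atxn3* in mutant libraries, each above the next gene in 2 of 4. Among wild-type libraries the only such pair was *Bean1* and *Spg7*. The exon length of a gene joins the exons of all its transcripts. It ran from 1937 bases in *Atxn10* to 15689 bases in *Atxn2*, with 13576 bases in *Tbp*. The levels per kilobase of all 9 genes, and so their order, depend on these lengths.

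**Figure D3:**
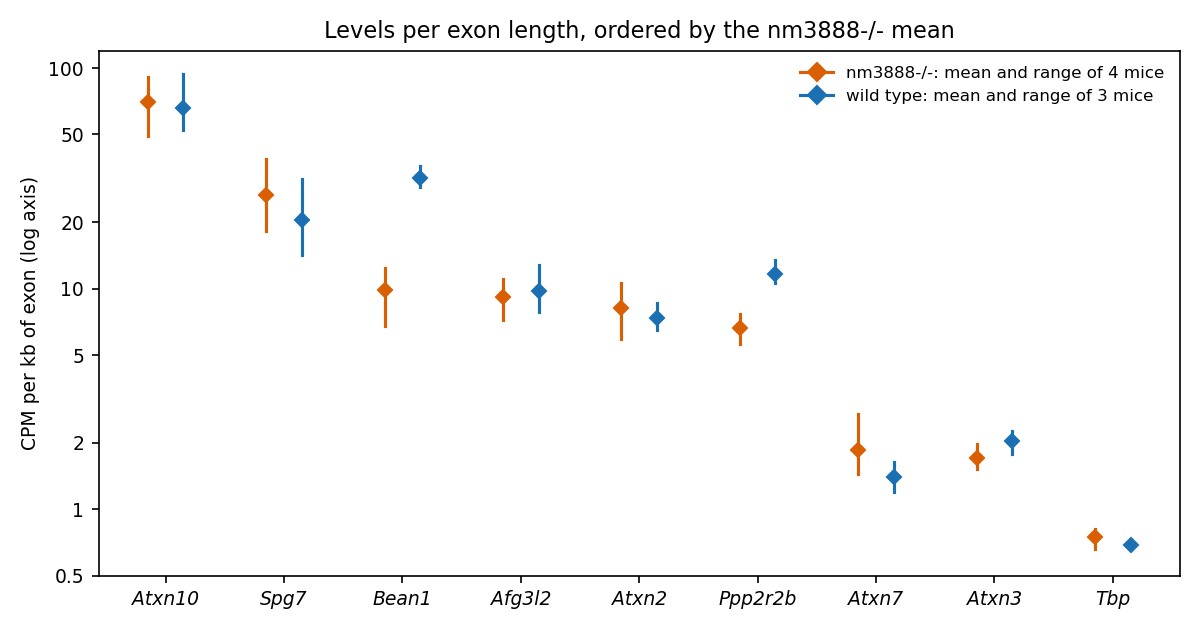
CPM per kilobase of exon (log axis) of the 9 genes, ordered by the *nm3888*-/- mean, with *nm3888*-/- in orange left of wild type in blue, diamonds for means and lines for the range over mice. *Bean1* and *Ppp2r2b* are the genes whose ranges do not overlap between the genotypes.

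The genes whose profiles over the 7 libraries were most like those of the 9 genes were taken by Pearson's r of log2(CPM + 0.5) after the mean of each series had been subtracted. They were *Tpgs2* (r = 0.9996) and *Mapk8ip1* (r = 0.999) for *Bean1*, and *Rit2* (r = 0.999) and *Zfp365* (r = 0.999) for *Ppp2r2b*. All of these were called lower in the mutant, with log2 fold changes of −0.54 for *Tpgs2*, −0.38 for *Mapk8ip1*, −2.56 for *Rit2* and −2.18 for *Zfp365*. The points share their genotype, so such values are common among genes that differ: 931 of 9200 genes had an r over 0.9 with *Bean1* and 873 with *Ppp2r2b*. *Bean1* and *Ppp2r2b* had an r of 0.957 with each other, and *Atxn3* had 0.901 with *Bean1* and 0.856 with *Ppp2r2b*. *Afg3l2* and *Tbp* ran opposite to each other (r = −0.91 over the 7 libraries). For the genes that were not called the most alike were *Caln1* and *Dvl3* with *Atxn3*, *Pabpc1* and *Clcn5* with *Atxn7*, *Gpr85* and *Cramp1l* with *Atxn2*, *AI987944* and *Marcks* with *Tbp*, *Fam210a* and *Rufy2* with *Atxn10*, *Alas1* and *Camkk2* with *Afg3l2*, and *Ilk* and *Eef2kmt* with *Spg7*, at r between 0.981 and 0.998. Of these *Caln1* was called lower (log2 fold change −1.04).

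In humans the repeat of *BEAN1* lies where this gene and *TK2*, which encodes mitochondrial thymidine kinase, are transcribed from opposite strands. *Tk2*, whose start lies 78.1 kb from that of *Bean1* in the mouse, had 27.1, 28.4, 26.6 and 28.8 CPM in mutants 1 to 4, against 29.0, 28.4 and 34.5 CPM in wild types 1 to 3. Its log2 fold change was −0.16 (SE 0.10, edgeR adjusted p = 0.373), so *Tk2* was not called beside *Bean1*. Of 12 tested genes whose start lies within 500 kb of that of *Bean1*, 1 was called, *Dync1li2*, a light intermediate chain of dynein (−0.60, lower). Of 6 such genes around *Ppp2r2b*, 1 was called, *Dpysl3*, a collapsin response mediator gene (−1.18, lower). Around the other 7 genes, which had 4 to 29 tested neighbors each, between 0 and 4 genes were called. The median log2 fold changes of the tested neighbors were from −0.11 to 0.20 around these 7 genes. They were −0.07 around *Bean1* and −0.22 around *Ppp2r2b*. Over all tested genes 8.54% were called, and the counts of neighbors were not tested against that share.

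**Figure D4:**
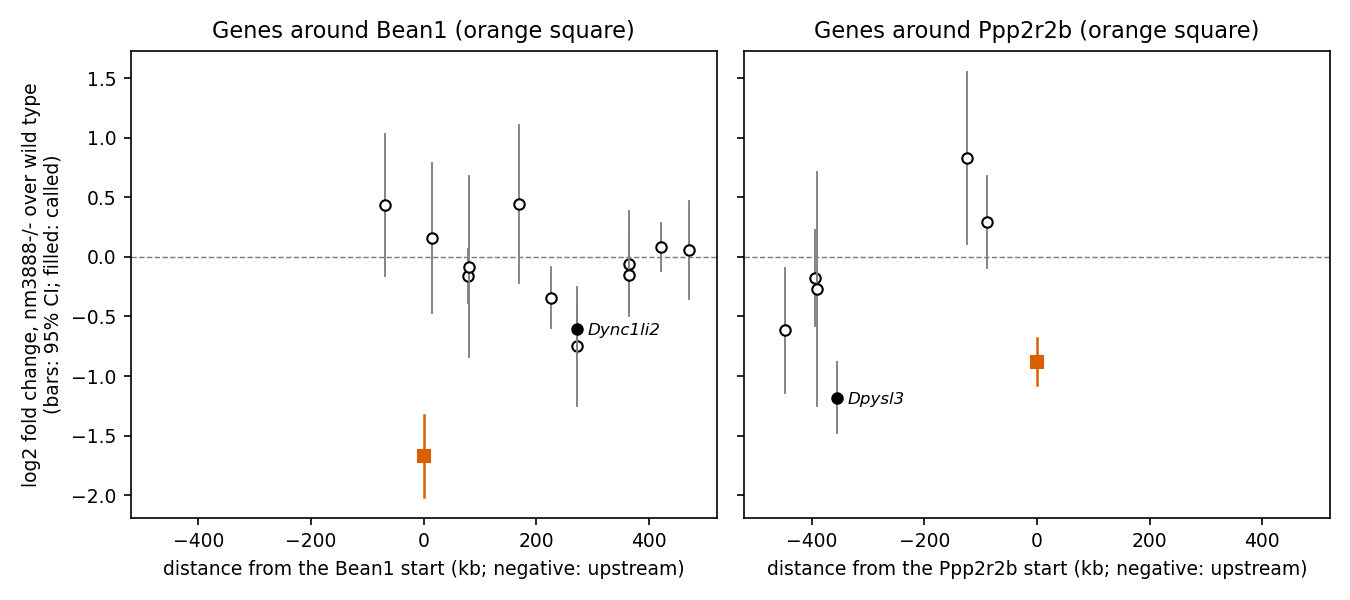
Log2 fold change of *nm3888*-/- over wild type for tested genes that start within 500 kb of *Bean1* (left) and *Ppp2r2b* (right), against the distance of their start in kb (negative is upstream), with 95% confidence intervals, filled circles where called and the gene itself as an orange square. *Dync1li2* (−0.60) and *Dpysl3* (−1.18) are the called neighbors.

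Genes that overlap the 9 genes were checked because their reads can be confused. On the opposite strand *Gm10631* overlaps *Bean1* over 6805 bases and had 1.87 to 2.61 CPM in mutant and 1.11 to 2.68 CPM in wild-type libraries, and *Gm45892* had at most 8 read pairs in a library. *Pdcd2* overlaps *Tbp* over 8094 bases on the opposite strand and had a log2 fold change of 0.31 (edgeR adjusted p = 0.125). *Sh2b3* overlaps the end of *Atxn2* (log2 fold change −0.08) and *Thoc7* overlaps the upstream end of *Atxn7* over 413 bases (0.14), and neither was called. A stranded kit was used and the read pairs were counted by strand. On the same strand *Gm20388* spans *Spg7* and *AC099605.1* overlaps *Ppp2r2b*, with at most 1 read pair in a library. These genes share 0% of the exon bases of *Spg7* and 1.24% of those of *Ppp2r2b*.

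The stretch upstream of *Bean1* is shown because this gene differed most and because the disrupted gene encodes a transcription factor. Its 179 bases end just before the first base of the gene in the count tables, on the plus strand at chr8:104170263-104170441, and come from the RefSeq-based promoter window on GRCm38.p6, the assembly also called mm10.
*Bean1* upstream: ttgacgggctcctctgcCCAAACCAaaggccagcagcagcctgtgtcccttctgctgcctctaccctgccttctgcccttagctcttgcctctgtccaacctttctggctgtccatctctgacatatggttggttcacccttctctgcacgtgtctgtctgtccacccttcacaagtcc
The capitals mark a match to CCAAACCA, 8 letters from the center of the published RREB1 consensus, which were searched on both strands and chosen after this sequence had been seen, so the match supports nothing about *Bean1*. The match starts 162 bases before the gene. Of 32851 promoter windows of 250 bases, 398 (1.21%) hold a match on either strand. A match is a description of the letters and does not show binding, and the motif that the study derived from RREB1 binding in Purkinje cells was not searched.

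Other ataxia genes of the mouse were counted beside the 9. Of 32 such genes, 29 were tested, of which 3 were higher and 3 were lower in the libraries labelled *nm3888*-/-. *Elovl4*, which elongates very long fatty acids, fell to 38.0, 46.1, 42.4 and 39.1 CPM in mutants 1 to 4, against 105, 87.5 and 77.8 CPM in wild types 1 to 3. *Elovl4* had a log2 fold change of −1.09 (SE 0.12, edgeR adjusted p = 8.20e-04). *Samd9l*, an interferon-induced regulator of growth, had 4.72, 6.50, 5.53 and 3.25 CPM in mutants 1 to 4, against 1.15, 0.712 and 0.507 CPM in wild types 1 to 3 (log2 fold change 2.82, SE 0.30, edgeR adjusted p = 8.24e-04). In both genes the genotypes did not overlap, as in 14.1% of all tested genes in either direction. *Nptx1*, a secreted pentraxin of synapses (0.41), was called higher, and *Elovl5*, another elongase (−0.50), and *Ttbk2*, a tau tubulin kinase (−0.55), were called lower, with edgeR adjusted p-values of 0.0422 to 0.0444. These last 3 calls were each lost in at least 6 of the 7 analyses that left out a library, and with sex as the term in place of the library series none of the 6 was called. The log2 fold changes with sex were −1.10 for *Elovl4*, 2.84 for *Samd9l*, 0.59 for *Nptx1*, −0.50 for *Elovl5* and −0.38 for *Ttbk2*. These values rest on mutants 1 and 2 against wild types 1 to 3, since mutants 3 and 4 were the only males. The lost calls do not show that the differences went away. *Atxn1*, the ataxin gene nearest to the mutation, lies 7.60 Mb from *Rreb1* on chromosome 13. Its log2 fold change was −0.05 (SE 0.09, edgeR adjusted p = 0.784).

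None of the 8 channel and mGluR1 genes among them was called. *Itpr1*, the IP3 receptor of Purkinje cells (0.10), was the most abundant. By the count of calls the 9 genes (2 of 9) and the other ataxia genes (6 of 29) both stood beside 8.54% over all tested genes, which is a description of lists chosen with earlier results known.

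**Figure D5:**
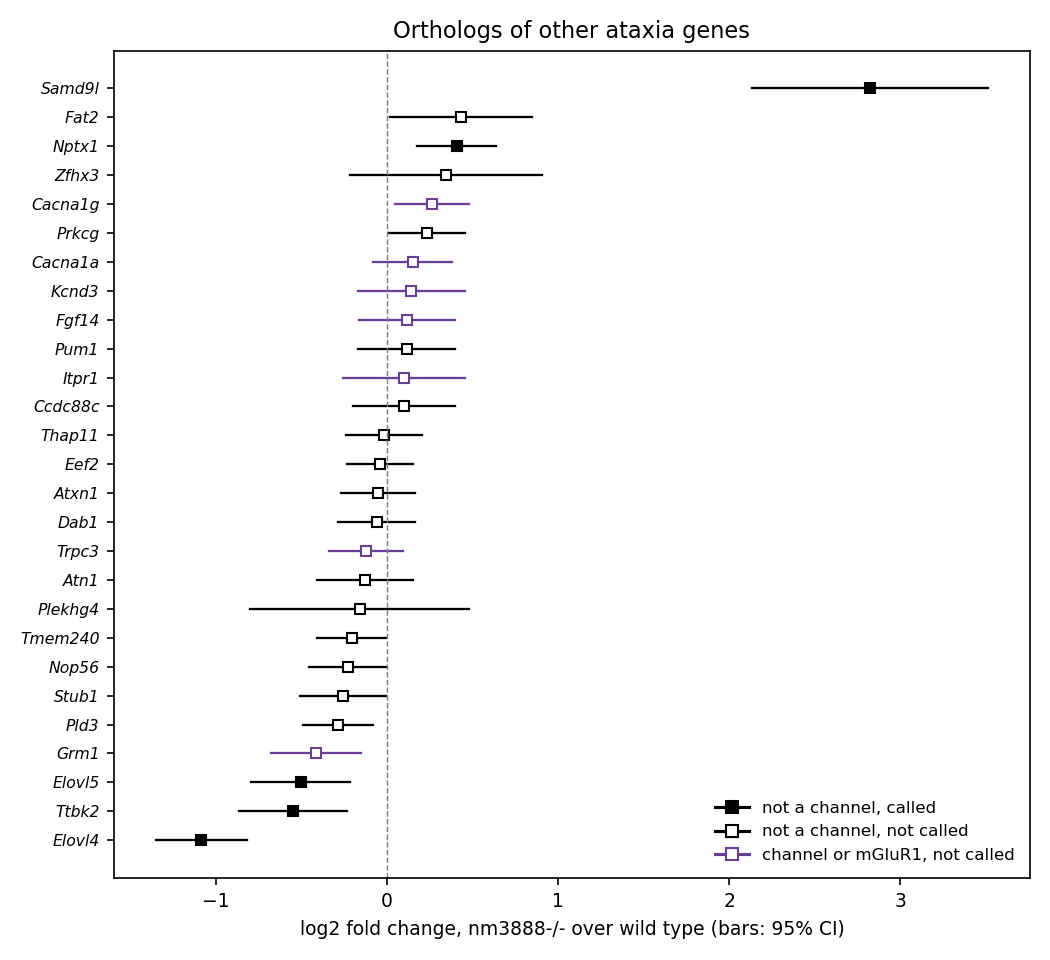
Log2 fold change of *nm3888*-/- over wild type with 95% confidence interval for 27 of the 29 other ataxia gene orthologs tested, filled where called, with channel and mGluR1 genes in purple. *Samd9l* (2.82) and *Nptx1* (0.41) were called higher, *Elovl5* (−0.50), *Ttbk2* (−0.55) and *Elovl4* (−1.09) lower.

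The paralogs and protein partners of the 9 genes were counted in the same way. Of 127 tested genes, 5 were called (2 higher and 3 lower), beside 8.54% of all tested genes, and the median log2 fold change was −0.01. With the replicate number as a block none of the 5 was called (edgeR adjusted p from 0.0529 to 0.145), with log2 fold changes of −0.52 for *Tbpl1*, 1.17 for *Cip2a*, −0.72 for *Micu2*, 0.36 for *Ppp2r5a* and −0.36 for *Ppp2r2c*, near those given below. Among 24 PP2A subunits and regulators *Ppp2r2c*, the B gamma paralog of *Ppp2r2b*, was lower, with 315, 309, 279 and 233 CPM in mutants 1 to 4, against 395, 389 and 371 CPM in wild types 1 to 3 (log2 fold change −0.41, SE 0.10, edgeR adjusted p = 0.0362). The other B subunit paralogs *Ppp2r2a* (0.05) and *Ppp2r2d* (−0.12) were not called. *Ppp2r5a*, a B56 subunit (0.35, edgeR adjusted p = 0.0398), and *Cip2a*, an inhibitor of PP2A (1.17, edgeR adjusted p = 0.0208), were called higher. *Cip2a* was low, at 1.26 to 3.42 CPM in mutant and 0.712 to 1.54 CPM in wild-type libraries, which overlap. In the 7 analyses that left out a library, the calls of *Ppp2r2c* and *Ppp2r5a* were each lost in 6. Those of *Cip2a*, *Micu2* and *Tbpl1* were lost in 4, 3 and 2. The catalytic subunit genes *Ppp2ca* (−0.29) and *Ppp2cb* (−0.25) and the scaffold genes *Ppp2r1a* (−0.12) and *Ppp2r1b* (−0.57) did not pass the test.

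*Tbpl1*, the TBP-like factor, had 28.0, 26.2, 26.7 and 26.8 CPM in mutants 1 to 4, against 40.4, 36.9 and 38.8 CPM in wild types 1 to 3, and was lower without overlap (log2 fold change −0.52, SE 0.09, edgeR adjusted p = 0.00864). None of the 26 tested TFIID subunits and TBP partners was called, of which *Gtf2a1* (−0.42) and *Taf1d* (0.40) had the lowest and the highest log2 fold change, and *Taf1*, the largest TFIID subunit, had 0.01. Among 22 mitochondrial proteases and partners of the m-AAA protease, *Micu2*, a gatekeeper of the mitochondrial calcium uniporter, was lower (−0.77, SE 0.16, edgeR adjusted p = 0.0178). *Afg3l1*, the third m-AAA subunit gene of the mouse (0.28, adjusted p = 0.132), was not called. None of 15 partners of ataxin-2 and stress granule proteins, 12 partners of ataxin-3, 18 SAGA subunits and 5 genes beside *Bean1* or of the NEDD4 ligases was called, with median log2 fold changes from −0.12 to 0.02. Among the most abundant of them were *Caprin1* (0.05) and *G3bp2* (−0.24) of stress granules, *Vcp* (0.28) and the proteasome shuttle *Rad23b* (0.08) of the ataxin-3 partners, and *Atxn7l3* (−0.27) and *Usp22* (−0.14) of the SAGA deubiquitinase module, to which ataxin-7 binds. *Nedd4*, whose product binds BEAN1, had 360, 473, 534 and 432 CPM in mutants 1 to 4, against 330, 345 and 354 CPM in wild types 1 to 3. All mutant libraries of *Nedd4* were above all wild-type libraries, and its log2 fold change of 0.36 (SE 0.13) did not pass the test (edgeR adjusted p = 0.122). The lack of overlap in *Nedd4* and *Tbpl1* stands beside 14.1% of all tested genes whose genotypes did not overlap in either direction.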

How the data were processed

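Ribosome-bound mRNA of Purkinje cells from 7 cerebella was sequenced with a stranded mRNA kit. The deposited values are raw counts of read pairs per gene: per the file headers the authors counted with featureCounts 2.0.1 on GENCODE M25 (mm10), with paired reads, a requirement that both mates map, and the reverse-strand setting. The methods name Bowtie2 for alignment, and the headers name a Bowtie2 folder for the first library series and a STAR folder for the second. Of 55401 genes, 55141 matched a symbol.

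Genes passing filterByExpr (17621) were tested with edgeR's quasi-likelihood test (edgeR 4.0.16 in R 4.3.3, with limma 3.58.1) on TMM-scaled libraries. Library series was a term, as a stand-in for the batch covariate of the study's methods, which the labels do not give. Calls are at a Benjamini-Hochberg adjusted p under 0.05, which called 1504 genes (455 higher, 1049 lower). A replicate block that replaced the series term called 812. Log2 fold changes are mutant over wild type, and standard errors come from the fold change and its F statistic. DESeq2 1.42.0 and 14 other alternatives were run. The deviations of same-numbered mutant and wild-type libraries from their group means correlated at 0.914, 0.946 and 0.96, and since equal numbers fall in the same library series, the pairing comes from the series. Under the block mutant 4, whose number no wild type shares, does not inform the comparison. CPM are scaled by TMM. The lowest count of the 9 genes in a library was 172 read pairs (*Tbp* in mutant 1), and intervals take the library as the unit.

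All 9 genes are named. Of other lists every called gene was named, up to 4 in each direction by adjusted p. Where none was called, up to 2 of the most abundant were named. As cell type markers only called genes were named. The 2 most similar genes of each of the 9, overlapping genes with counts and *Rreb1* were named too. As an exception to this rule, the values of 2 other ataxia genes are not reported here, though the counts include them. Further genes were named after their values had been seen. The members, lists and tests were chosen with earlier results of these data known. Only the counts, exon coordinates and exon lengths of the tables were used.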

Additional observations from a re-analysis of the deposited data

How the results depend on the processing

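The call of *Bean1* held in all 15 alternatives. The number of the 9 genes called was 2, and 1 with no series term and with sex in place of the series, where *Ppp2r2b* did not pass; it was 2 without each library in turn. *Atxn2*, which was not called in any analysis, changed sign with sex in place of the series (log2 fold change −0.18), in the first series alone (−0.050) and without mutant 2, mutant 3 or wild type 3 (range over the analyses that left out a library −0.053 to 0.13). *Atxn10* changed sign with no series term (0.083) and *Spg7* with sex in place of the series (−0.14). Over all genes 309 were called with no series term, 102 with sex in its place, 812 with the replicate block, 679 in the first series alone (191 higher, 488 lower) and 1060 in the second (567 higher, 493 lower, against 455 and 1049 in all libraries), and 599 to 1425 without 1 library (599 when wild type 3 was left out, 751 for wild type 2, 889 for wild type 1 and 917 for mutant 2). Of the other ataxia genes 6 were called, 3 with no series term and in each series alone, 0 with sex, and 3 to 5 without 1 library (3 without mutant 1 or any wild type). Of the paralogs and partners 5 were called, 0 with no series term, with sex, with the replicate block and in each series alone, and 0 to 6 without 1 library (0 without wild type 1 or wild type 3, 1 without wild type 2, 3 without mutant 2 or mutant 4). The replicate block changed no call of the 9 genes. The fit without the series term leaves the differences between series in the residual spread. They also enter its log2 fold changes, since mutant and wild-type libraries are unequally split over the series. Mutants 3 and 4 were the only males. With sex as the term, the log2 fold changes thus compare mutants 1 and 2 with wild types 1 to 3. Wild type 3 is of the second series, so differences between series enter these log2 fold changes as well as the spread. The second series holds 1 wild-type mouse, so no spread between wild-type mice is seen there. The p-values set each difference against the residual spread between these 7 mice.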
